A study of Homo sapiens with 40 samples.

Results

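The 38 genes described here build the mitotic spindle, drive entry into and exit from mitosis, and cut the dividing cell apart. They were taken by a fixed list of Ensembl gene identifiers from a table of 22069 genes, and all 38 were present. The expression data came from 40 arrays (Affymetrix Human WT 1.1) on 2 lines of human cells, hTERT-RPE1 (RPE1 below), normal retinal pigment epithelial cells immortalised with telomerase, and U2OS, an osteosarcoma line. Cells of each line were reverse transfected with 15 nM of an siRNA pool, either a negative control pool or a pool against CASP8AP2, NPAT or HINFP (which are regulators of histone gene transcription). On days 1 and 2 after transfection there were control and CASP8AP2 siRNA arrays (8 groups of 3, 24 arrays), and on day 3 there were control, CASP8AP2, NPAT and HINFP siRNA arrays (8 groups of 2, 16 arrays). Each knockdown was made with 1 pool of 4 siRNAs, so effects of single siRNAs cannot be told apart, and the methods state that duplicates were transfected simultaneously.

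Mitosis genes are transcribed mainly in G2 and M phase. CDK1 with its cyclin partners starts mitosis, the Aurora and Polo-like kinases build and correct spindle attachments, kinesin motors move microtubules and chromosomes, and the spindle checkpoint holds back the anaphase-promoting complex until every kinetochore is attached. Many of these genes are repressed outside G2 and M by the DREAM complex and activated by B-MYB and FOXM1, through a promoter element called the CHR (cell cycle genes homology region) that often lies a short distance from CCAAT boxes bound by NF-Y.

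By role, the genes of mitotic entry and its transcription were CDK1 (ENSG00000170312_at), the phosphatases CDC25B (ENSG00000101224_at) and CDC25C (ENSG00000158402_at) that activate it, the kinases PLK1 (ENSG00000166851_at) and AURKA (ENSG00000087586_at), and the transcription factor FOXM1 (ENSG00000111206_at). The chromosomal passenger complex, which corrects attachments at centromeres, was represented by its kinase AURKB (ENSG00000178999_at), survivin BIRC5 (ENSG00000089685_at) and borealin CDCA8 (ENSG00000134690_at). The checkpoint and kinetochore genes were BUB1 (ENSG00000169679_at), BUB1B (ENSG00000156970_at), MAD2L1 (ENSG00000164109_at), TTK (ENSG00000112742_at), NDC80 (ENSG00000080986_at), NUF2 (ENSG00000143228_at), CENPE (ENSG00000138778_at) and CENPF (ENSG00000117724_at). The anaphase genes were CDC20 (ENSG00000117399_at), an activator of the anaphase-promoting complex, its ubiquitin-conjugating enzyme UBE2C (ENSG00000175063_at), and securin PTTG1 (ENSG00000164611_at). PTTG1 has near-identical copies in the genome, and since the probes behind its value were not examined here, its values are uncertain. The kinesins were KIF11 (ENSG00000138160_at), which pushes spindle poles apart, KIF2C (ENSG00000142945_at), KIF4A (ENSG00000090889_at), KIF14 (ENSG00000118193_at), KIF20A (ENSG00000112984_at) and KIF23 (ENSG00000137807_at). Spindle assembly was represented by TPX2 (ENSG00000088325_at), NUSAP1 (ENSG00000137804_at), HMMR (ENSG00000072571_at), DLGAP5 (ENSG00000126787_at) and ASPM (ENSG00000066279_at), and cytokinesis by ANLN (ENSG00000011426_at), PRC1 (ENSG00000198901_at), ECT2 (ENSG00000114346_at), CEP55 (ENSG00000138180_at) and RACGAP1 (ENSG00000161800_at). The last pair acts on chromosome structure, topoisomerase TOP2A (ENSG00000131747_at) and MKI67 (ENSG00000148773_at), which coats mitotic chromosomes and is the Ki-67 proliferation marker.

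Promoter windows of 300 bases, 250 before and 50 after the transcription start, were taken from RefSeq (GRCh38.p14) for the 31 members that matched by symbol. The 7 members not matched were RACGAP1, AURKA, UBE2C, BIRC5, TTK, FOXM1 and TPX2. The CHR letters TTTGAA (either strand) or TTCGAA (the same on both strands) were found in 29 of the 41 windows of these members (70.7%), against 16.4% of all 35116 windows. CCAAT on either strand was found in 30 of the 41 (73.2%), against 34.6% of all windows, and the 2 together in 24 of 41 (58.5%), against 6.38%. Windows of 1 gene can overlap, and such letter matches do not show that a factor binds. The 6 sequences below are those of the named members with CHR letters in their first window and the largest difference from control under any siRNA, and they show how the CHR and CCAAT letters (capitals; ATTGG is CCAAT on the other strand, and neighbouring matches run together) lie relative to the start, which follows the first 250 bases of each. All are written 5′ to 3′ along the strand of the gene. ECT2, like CDK1, has 2 windows listed, and the first is shown.
HMMR, chr5:163460382-163460681, plus strand: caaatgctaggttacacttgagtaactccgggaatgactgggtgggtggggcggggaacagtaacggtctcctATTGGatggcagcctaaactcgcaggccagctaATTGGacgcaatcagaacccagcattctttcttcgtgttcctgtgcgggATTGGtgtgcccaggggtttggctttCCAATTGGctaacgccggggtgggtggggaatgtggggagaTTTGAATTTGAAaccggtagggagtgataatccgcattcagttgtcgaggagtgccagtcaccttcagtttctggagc
ECT2, chr3:172750476-172750775, plus strand: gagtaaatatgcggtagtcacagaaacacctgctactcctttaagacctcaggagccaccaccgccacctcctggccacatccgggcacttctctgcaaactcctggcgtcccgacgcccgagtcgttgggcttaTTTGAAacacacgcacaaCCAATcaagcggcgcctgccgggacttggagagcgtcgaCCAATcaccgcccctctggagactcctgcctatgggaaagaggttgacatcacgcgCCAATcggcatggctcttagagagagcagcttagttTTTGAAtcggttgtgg
NUF2, chr1:163321704-163322003, plus strand: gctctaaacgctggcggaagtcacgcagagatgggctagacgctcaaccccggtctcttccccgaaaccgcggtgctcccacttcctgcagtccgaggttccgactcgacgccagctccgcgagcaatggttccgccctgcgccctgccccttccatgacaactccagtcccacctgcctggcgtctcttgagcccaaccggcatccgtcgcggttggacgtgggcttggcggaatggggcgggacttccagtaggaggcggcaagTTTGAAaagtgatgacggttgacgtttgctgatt
MAD2L1, chr4:120066799-120067098, minus strand: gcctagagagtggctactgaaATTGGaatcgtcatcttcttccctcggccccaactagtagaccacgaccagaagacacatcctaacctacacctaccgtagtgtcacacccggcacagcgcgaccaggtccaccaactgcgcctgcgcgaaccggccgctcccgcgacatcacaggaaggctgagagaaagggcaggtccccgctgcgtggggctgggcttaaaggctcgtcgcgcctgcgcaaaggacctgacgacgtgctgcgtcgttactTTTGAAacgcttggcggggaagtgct
CDK1, chr10:60778081-60778380, plus strand, the first of 2 windows listed: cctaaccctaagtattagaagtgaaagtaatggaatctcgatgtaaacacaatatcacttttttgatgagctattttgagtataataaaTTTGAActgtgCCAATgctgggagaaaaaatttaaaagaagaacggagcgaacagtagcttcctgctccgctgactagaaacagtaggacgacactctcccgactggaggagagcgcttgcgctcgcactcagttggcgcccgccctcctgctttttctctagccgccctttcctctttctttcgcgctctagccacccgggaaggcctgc
PLK1, chr16:23678639-23678938, plus strand: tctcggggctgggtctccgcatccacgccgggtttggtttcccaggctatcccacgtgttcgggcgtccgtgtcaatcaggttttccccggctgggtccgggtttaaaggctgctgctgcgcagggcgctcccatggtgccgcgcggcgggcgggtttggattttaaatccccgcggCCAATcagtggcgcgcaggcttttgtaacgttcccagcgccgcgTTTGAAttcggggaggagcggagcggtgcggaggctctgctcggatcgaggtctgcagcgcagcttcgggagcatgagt

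**Figure D1:**
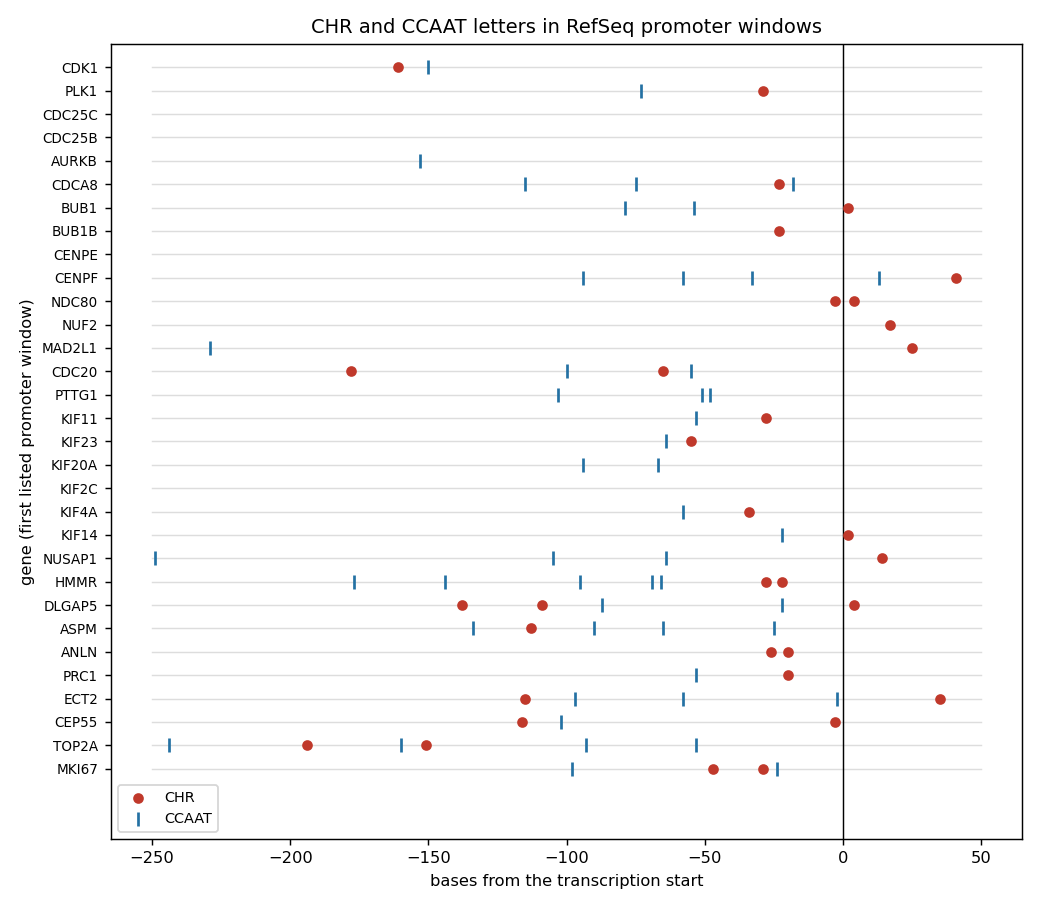
Position of the CHR letters (red points) and CCAAT letters (blue ticks) in the first listed RefSeq promoter window of 31 members; the x axis is the distance of the first base of the match from the transcription start in bases, and each row is a gene. HMMR carries 2 CHR matches, at -28 and -22, and 5 CCAAT matches between -177 and -66, while KIF20A, AURKB and PTTG1 carry CCAAT letters without CHR letters. Matches of CDC25B and CDC25C lie in later windows and are not drawn.

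Each array gave 1 log2 value per gene, computed by the authors, and precision is limited by how many arrays there were. The means of single arrays over all genes ran from 6.00 to 6.05 in the set of days 1 and 2, and from 5.85 to 5.88 in the day 3 set, and no level was compared between these sets. The targeted genes were lower in every comparison with their own pool. The log2 fold change of CASP8AP2 ranged from -0.85 to -0.76 in RPE1 and from -1.73 to -1.18 in U2OS, that of NPAT was -1.31 and -1.59, and that of HINFP was -1.05 and -1.64, in RPE1 and U2OS respectively. Of the markers that could be matched to an identifier, the retinal pigment epithelium genes BEST1 and RLBP1 had control group means of 3.93 to 4.13 and 3.78 to 4.15 in RPE1, below the array medians of 5.23 to 5.67. The osteoblast lineage genes COL1A2, IBSP and SOST were also at 4.00 to 4.49, 3.47 to 3.76 and 4.91 to 4.98 in U2OS controls, and RUNX2 was higher in RPE1 (9.57 to 9.67) than in U2OS (7.34 to 7.87), so these markers do not identify either line.

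With control siRNA alone, the mitosis genes followed opposite courses in the 2 lines between day 1 and day 2. In RPE1 cells 34 of 38 fell, with a median log2 fold change of -0.32, and 5.56% of all genes were lower by the same test (limma, Benjamini-Hochberg adjusted p under 0.05 over all 22069 genes, which is what "passed the test", "rose" and "fell" mean throughout). In U2OS cells 22 of 38 rose, with a median of 0.20 (7.29% of all genes were higher). The medians over all genes were 0.0032 and -0.0066. In these bulk samples, fewer cells in G2 and M and less RNA per such cell cannot be told apart.

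NDC80, a subunit of the kinetochore complex that grips microtubules, was at 9.80, 9.83 and 9.84 in the RPE1 control arrays on day 1 and at 9.08, 9.25 and 9.21 on day 2 (log2 difference -0.65 ± 0.053 SE, adjusted p = 7.99e-08). No array of one day overlapped the other. BUB1B, the checkpoint protein BUBR1, fell next most (log2 difference -0.50 ± 0.084 SE, adjusted p = 0.000422). The 4 RPE1 members that did not pass were PTTG1, BIRC5, DLGAP5 and MAD2L1, with log2 fold changes between -0.23 and -0.12. In U2OS controls KIF20A, a kinesin of cytokinesis, was at 9.13, 9.27 and 9.37 on day 1 and at 9.86, 9.92 and 9.84 on day 2 (log2 difference 0.62 ± 0.068 SE, adjusted p = 2.45e-06), again without overlap, and HMMR rose by 0.40. The difference between the lines in this drift, a comparison added after the control values had been seen, passed the test for 35 of 38 members, all more positive in U2OS (median 0.49; 6.06% of all genes). It was led by KIF20A (log2 difference 0.91 ± 0.096 SE, adjusted p = 2.03e-06) and NDC80 (log2 difference 0.89 ± 0.076 SE, adjusted p = 1.23e-07). In a fit of the compared arrays alone, 13 members passed in RPE1, and with each array centred on its median 14 passed in U2OS.

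**Figure D2:**
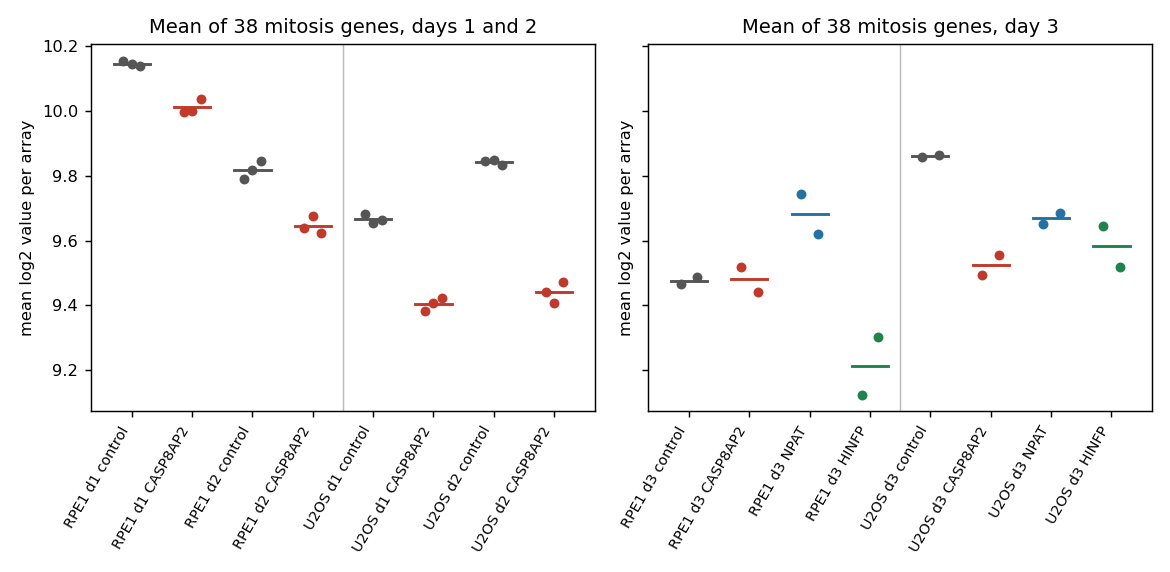
Mean log2 value over the 38 mitosis genes on each array (points) with the group mean (bars), by line, day (d) and siRNA pool. Days 1 and 2 (left) and day 3 (right) were taken as normalized separately. Control means go down from 10.15 to 9.82 in RPE1 and up from 9.67 to 9.84 in U2OS between day 1 and day 2, and CASP8AP2 arrays lie below their control in every pair but RPE1 on day 3.

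The order of the lines in control cells was not the same on each day. On day 1, 27 members were lower and 3 higher in U2OS than in RPE1 (median difference -0.48), against 22.7% and 26% of all genes. On day 2, 11 were lower and 15 higher (median 0.025), against 23.7% and 27.1%. On day 3, 4 were lower and 23 higher (median 0.42), against 20.5% and 23.3%. Centring each array on its median moved the median of all genes by -0.12 on day 1 and -0.16 on day 2. The counts then were 32 lower and 0 higher on day 1, and 18 lower and 8 higher on day 2. Cyclic loess gave 14 lower and 11 higher on day 2. The day 2 median of the members was -0.13 after median centring and -0.043 after cyclic loess.

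A few genes stood at the ends of this order. KIF20A was at 10.86, 10.96 and 10.90 in RPE1 and 9.13, 9.27 and 9.37 in U2OS on day 1 (log2 difference -1.65 ± 0.068 SE, adjusted p = 6.78e-15). ASPM, a spindle pole protein, was at 9.54, 9.71 and 9.76 in RPE1 and 8.61, 8.61 and 8.46 in U2OS on day 2 (log2 difference -1.11 ± 0.079 SE, adjusted p = 6.98e-11). On day 3 it was at 9.43 and 9.55 in RPE1 and at 8.71 and 8.70 in U2OS (log2 difference -0.78 ± 0.13 SE, adjusted p = 0.000194). U2OS was the lower line on each of these days for ASPM, with every U2OS array below every RPE1 array. In the other direction, NDC80 on day 3 was at 9.01 and 9.05 in RPE1 and 10.50 and 10.41 in U2OS (log2 difference 1.42 ± 0.12 SE, adjusted p = 5.36e-07). FOXM1 on day 1 was at 10.98, 10.98 and 11.00 in RPE1 and 11.18, 11.16 and 11.20 in U2OS (log2 difference 0.19 ± 0.046 SE, adjusted p = 0.00127), a small difference whose call was lost after median centring (adjusted p = 0.242; range over the alternatives, 0.000796 to 0.242).

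CASP8AP2 siRNA lowered most of the mitosis genes in U2OS cells on days 1 and 2. On day 1, 26 of 38 fell (median log2 fold change -0.24), where 3.01% of all genes fell. On day 2, 33 of 38 fell (median -0.41), where 13.1% of all genes fell. No member rose on either day. The medians over all genes were 0.005 and -0.012.

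HMMR, a microtubule-binding protein of the spindle pole, had the largest fall on both days. Its U2OS control arrays were at 8.51, 8.48 and 8.48 on day 1 and its CASP8AP2 arrays at 7.79, 7.87 and 7.79 (log2 difference -0.67 ± 0.059 SE, adjusted p = 2.60e-07). On day 2 the controls were at 8.86, 8.93 and 8.86 and the CASP8AP2 arrays at 7.93, 7.76 and 7.87 (log2 difference -1.03 ± 0.059 SE, adjusted p = 4.81e-11), or 0.489 of the control level. The groups did not overlap on either day. MAD2L1, the checkpoint protein MAD2, was second on day 1 (log2 difference -0.51 ± 0.095 SE, adjusted p = 0.00161) and KIF20A second on day 2 (log2 difference -0.75 ± 0.068 SE, adjusted p = 3.52e-08), where its CASP8AP2 arrays were at 9.13, 9.12 and 9.11 and its controls at 9.86, 9.92 and 9.84.

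On day 2 in U2OS, all 8 checkpoint and kinetochore genes fell, with a median log2 fold change of -0.44, and NUF2 (-0.70) and CENPE (-0.60), the kinesin that carries chromosomes to the spindle equator, fell most among them. All 5 spindle assembly genes fell (median -0.46), as did all 5 cytokinesis genes (median -0.43). Among the 6 entry genes 5 fell, PLK1 most (log2 difference -0.59 ± 0.052 SE, adjusted p = 2.34e-08), and CDK1 went from 9.07, 9.15 and 9.03 to 8.71, 8.73 and 8.77 (log2 difference -0.34 ± 0.052 SE, adjusted p = 3.27e-05). FOXM1, which activates many of the other members, fell by less than any other called member (-0.17, adjusted p = 0.0112). That call was lost in the fit of the compared arrays alone and after cyclic loess (adjusted p over all alternatives, 0.00486 to 0.219). The 5 members that did not pass were AURKB (-0.038), PTTG1 (-0.12), CDC25C (-0.14), KIF14 (-0.15) and MKI67 (-0.17). AURKB arrays overlapped between the groups, with controls at 9.97, 9.97 and 10.06 and CASP8AP2 arrays at 9.90, 9.98 and 10.00.

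On day 1 in U2OS the roles also had negative values, with median log2 fold changes of -0.34 for spindle assembly, -0.30 for the kinesins, -0.28 for the checkpoint and kinetochore genes and -0.24 for cytokinesis. The passenger complex had the median nearest 0, at -0.068, with 0 of its 3 genes called (AURKB 0.016, BIRC5 -0.11, CDCA8 -0.068). BIRC5 and CDCA8 fell on day 2 (-0.40 and -0.34). MKI67 fell on day 1, from 10.10, 10.00 and 10.13 to 9.74, 9.72 and 9.72 (log2 difference -0.35 ± 0.066 SE, adjusted p = 0.00166), and on day 2 its controls were at 10.04, 9.89 and 9.90 and its CASP8AP2 arrays at 9.79, 9.72 and 9.79, where it did not pass.

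The difference from control in U2OS was more negative on day 2 than on day 1 for 9 members by the interaction of siRNA and day (3.04% of all genes). NUF2 (log2 difference -0.37 ± 0.072 SE, adjusted p = 0.00234) and HMMR (log2 difference -0.36 ± 0.084 SE, adjusted p = 0.0114) were first, followed by TPX2, PLK1, BIRC5, ECT2, TTK, PRC1 and BUB1. The controls moved as well. The HMMR mean went from 8.49 to 8.88 in controls and from 7.81 to 7.85 with CASP8AP2 siRNA. The NUF2 mean went from 9.07 to 9.25 in controls and from 8.74 to 8.55 with CASP8AP2 siRNA. In RPE1, 0 members passed that interaction (4 at an unadjusted p under 0.05; 0.652% of all genes passed). The day 1 count in U2OS was 17 without control replicate 1 and 12 in a fit of the compared arrays alone. The day 2 count stayed between 32 and 33 when single arrays were left out. The interaction count fell to 4 or 5 without control replicate 2 or 3 or CASP8AP2 replicate 2 or 3 of day 1, any control replicate of day 2, or CASP8AP2 replicate 1 or 2 of day 2, and was 3 after cyclic loess.

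**Figure D3:**
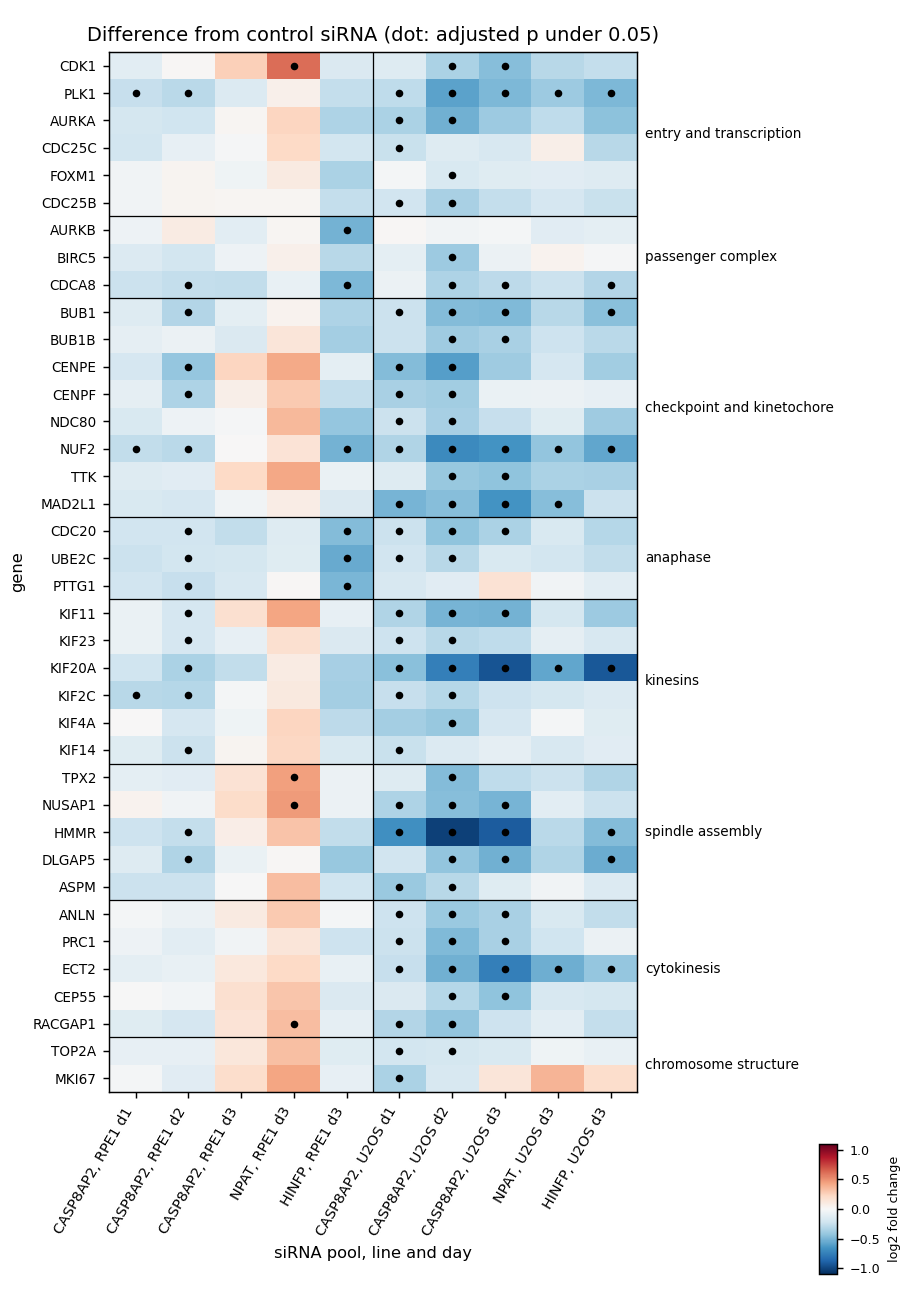
Log2 fold change against control siRNA (colour) for the 38 members, in rows by role, in the 10 comparisons of an siRNA pool with the control of the same line and day; a dot marks an adjusted p under 0.05. The U2OS CASP8AP2 columns are blue for almost every gene with 26, 33 and 18 dots on days 1, 2 and 3, and the RPE1 NPAT column is mostly red with 4 dots.

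In RPE1 cells a minority of the members passed the test with CASP8AP2 siRNA. Their values were nonetheless negative for 36 of 38 on day 1 and for 34 of 38 on day 2. On day 1, 3 of 38 fell (median -0.14), where 0.344% of all genes fell, and on day 2, 16 of 38 fell (median -0.19), where 2.16% of all genes fell. The day 1 members were KIF2C, a microtubule-depolymerising kinesin, NUF2 (log2 difference -0.27 ± 0.051 SE, adjusted p = 0.0102) and PLK1 (log2 difference -0.25 ± 0.052 SE, adjusted p = 0.0199). KIF2C was at 8.82, 8.90 and 8.82 in controls and 8.53, 8.50 and 8.59 in CASP8AP2 arrays (log2 difference -0.30 ± 0.062 SE, adjusted p = 0.0186), without overlap. The day 1 count was 0 or 1 when control replicate 1, 2 or 3 or CASP8AP2 replicate 1 or 2 was left out.

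On day 2 in RPE1 the largest fall was that of CENPE, from 9.06, 9.08 and 9.25 to 8.67, 8.83 and 8.61 (log2 difference -0.43 ± 0.062 SE, adjusted p = 0.0001), and the second that of KIF20A (log2 difference -0.35 ± 0.068 SE, adjusted p = 0.00244). All CASP8AP2 arrays lay below all control arrays for both genes. Of the kinesins 5 of 6 fell and of the anaphase genes all 3 fell, with log2 fold changes of -0.21 (CDC20), -0.21 (UBE2C) and -0.25 (PTTG1), while 0 of the 5 cytokinesis genes passed (median -0.078). CDK1 was at 8.44, 8.53 and 8.61 in controls and 8.54, 8.54 and 8.54 with CASP8AP2 siRNA (0.015, adjusted p = 0.926). The day 2 count was 9 without CASP8AP2 replicate 3, and 0 in a fit of the compared arrays alone, where the adjusted p of CENPE was 0.0509 (range over its alternatives, 3.2e-05 to 0.0509).

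On day 3 the CASP8AP2 comparison gave calls in U2OS and none in RPE1. In RPE1 0 of 38 members passed the test (4 at an unadjusted p under 0.05: CDK1, CDC20, KIF20A and CDCA8; median -0.0071, -0.038 to 0.044 when single arrays were left out), where 6.15% of all genes passed, and a fit of all 40 arrays called 3. In U2OS 18 of 38 fell (median -0.32), where 11% of all genes fell. KIF20A was at 9.99 and 9.97 in controls and 8.96 and 9.09 with CASP8AP2 siRNA (log2 difference -0.95 ± 0.11 SE, adjusted p = 0.000119). HMMR was at 9.16 and 9.19 in controls and at 8.15 and 8.36 with CASP8AP2 siRNA (log2 difference -0.92 ± 0.12 SE, adjusted p = 0.00021), so that neither gene's groups overlapped. ECT2, the activator of RhoA at the cleavage furrow, fell as well (-0.75), and CDK1 went from 9.50 and 9.62 to 9.00 and 9.18 (log2 difference -0.47 ± 0.11 SE, adjusted p = 0.0106). By role the U2OS medians on day 3 were -0.51 for spindle assembly (3 of 5 fell), -0.42 for the checkpoint and kinetochore genes (5 of 8 fell), -0.36 for cytokinesis (4 of 5 fell), -0.33 for entry and transcription (2 of 6 fell) and -0.25 for the kinesins (2 of 6 fell). They were -0.17 for the anaphase genes (1 of 3 fell), -0.067 for the passenger complex (1 of 3 fell) and -0.016 for chromosome structure (0 of 2 called). MKI67 and PTTG1 had positive values that did not pass (0.13 and 0.16). The U2OS count was 10 or 9 when control replicate 1 or 2 was left out, and 6 without CASP8AP2 replicate 1; with 1 array left in an arm, that array is assumed to vary like the other groups.

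Tested directly, the CASP8AP2 effect was more negative in U2OS than in RPE1 for 2 members on day 1, HMMR (log2 difference -0.45 ± 0.084 SE, adjusted p = 0.0117) and NUSAP1 (log2 difference -0.38 ± 0.078 SE, adjusted p = 0.0229), for 16 on day 2 and for 10 on day 3, and it was more positive for none. Over all genes, 0.408%, 4.83% and 5.5% were more negative in U2OS on these days. CASP8AP2 RNA itself was lowered less in RPE1 than in U2OS, as given above. The line and the size of the knockdown therefore cannot be told apart in this comparison. In RPE1 the HMMR arrays were at 8.59, 8.71 and 8.74 with control and 8.50, 8.38 and 8.36 with CASP8AP2 siRNA on day 2. On day 3 they were at 8.50 and 8.31 with control and at 8.51 and 8.44 with CASP8AP2 siRNA. These groups were separate on day 2 and overlapped on day 3. HMMR led the difference on day 2 (log2 difference -0.77 ± 0.084 SE, adjusted p = 3.25e-06) and day 3 (log2 difference -0.99 ± 0.16 SE, adjusted p = 0.00342), and ECT2 was second on both, with differences of -0.45 and -0.87. The other members on day 2 were NUSAP1, KIF20A, NUF2, CDC25B, PRC1, CDK1, TPX2, ANLN, KIF11, NDC80, AURKA, TTK, PLK1 and CEP55, and on day 3 they were CDK1, NUSAP1, KIF11, KIF20A, TTK, NUF2, MAD2L1 and CEP55. The day 2 count lay between 14 and 17 when single arrays were left out. The day 1 count was 1 without RPE1 control replicate 3, RPE1 CASP8AP2 replicate 1 or 3, U2OS control replicate 3 or U2OS CASP8AP2 replicate 2. The day 3 count was 5 without RPE1 CASP8AP2 replicate 1, 6 without RPE1 CASP8AP2 replicate 2 or U2OS control replicate 1, and 2 without U2OS control replicate 2 or U2OS CASP8AP2 replicate 1.

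**Figure D4:**
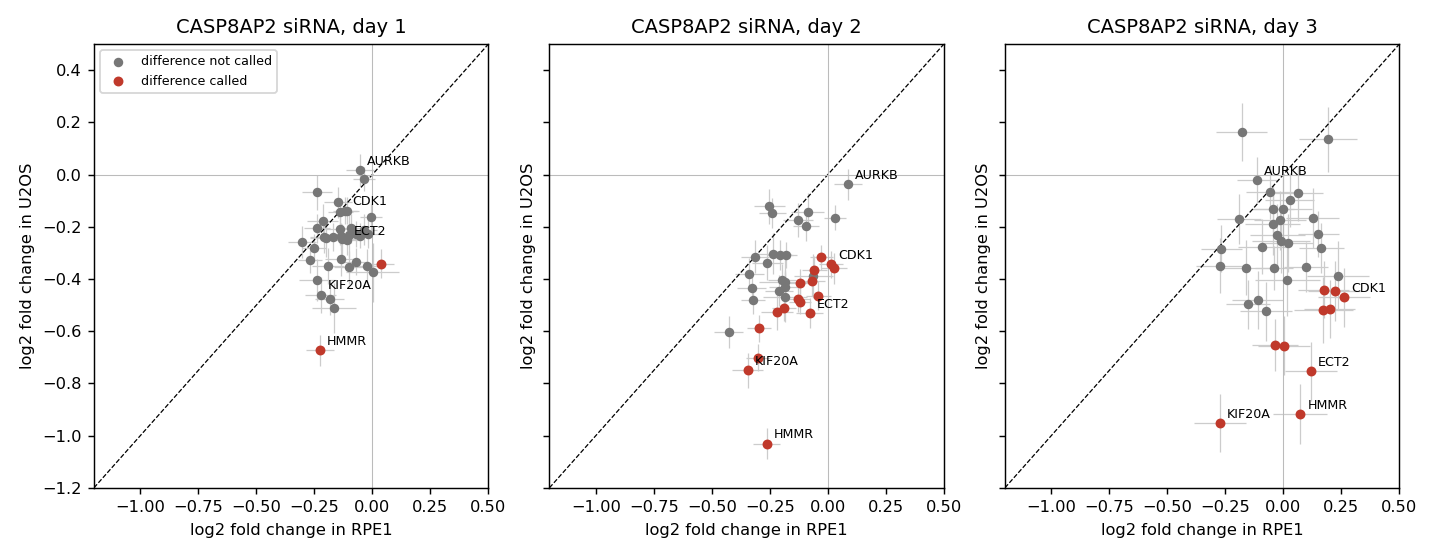
Log2 fold change of CASP8AP2 against control siRNA in RPE1 (x axis) and U2OS (y axis) for the 38 members on days 1, 2 and 3; error bars are standard errors of the fit, the dashed line marks equal effects, and red points are members whose difference between lines passed the test (2, 16 and 10). HMMR lies farthest below the line on each day.

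NPAT siRNA was used on day 3 alone, and its comparisons share their control arrays with those of CASP8AP2 and HINFP. In RPE1 cells 4 of 38 members rose and none fell (median 0.22), where 2.37% of all genes rose. CDK1 was at 8.47 and 8.53 in controls and at 9.26 and 8.97 with NPAT siRNA (log2 difference 0.61 ± 0.11 SE, adjusted p = 0.0085), without overlap. NUSAP1, which stabilises spindle microtubules, rose (log2 difference 0.47 ± 0.11 SE, adjusted p = 0.0317), as did TPX2, the activator of Aurora A (log2 difference 0.45 ± 0.097 SE, adjusted p = 0.0192), and RACGAP1, a partner of ECT2 (log2 difference 0.34 ± 0.088 SE, adjusted p = 0.0458). The kinetochore kinesin CENPE was at 8.85 and 8.74 in controls and at 9.35 and 9.08 with NPAT siRNA (0.42, adjusted p = 0.0946). KIF11 was at 9.62 and 9.71 in controls and at 10.23 and 9.98 with NPAT siRNA (0.44, adjusted p = 0.0665). The groups of both genes lay apart without passing the test. The anaphase genes had values near or below 0 (CDC20 -0.14, UBE2C -0.14, PTTG1 0.014) that did not pass. The RPE1 count was 2 without control replicate 1 or 2, 0 without NPAT replicate 1 (median then 0.14), 1 without NPAT replicate 2, 0 in a fit of the compared arrays alone and 15 in a fit of all 40 arrays.

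In U2OS cells NPAT siRNA lowered 5 of 38 members and raised none (median -0.18), where 4.29% of all genes fell. They were KIF20A, ECT2 (log2 difference -0.54 ± 0.11 SE, adjusted p = 0.0122), MAD2L1 (-0.47), NUF2 (-0.43) and PLK1 (-0.40). KIF20A was at 9.99 and 9.97 in controls and 9.38 and 9.43 with NPAT siRNA (log2 difference -0.57 ± 0.11 SE, adjusted p = 0.00791). MKI67 was at 9.73 and 9.90 in controls and at 9.97 and 10.39 with NPAT siRNA, higher on both NPAT arrays but not past the test (0.37, adjusted p = 0.0883). The count was 1 (lower) without control replicate 1 or 2 or NPAT replicate 2. MKI67 was called higher in 3 alternatives, beside 1 member lower without NPAT replicate 1, 13 lower in a fit of all 40 arrays and 4 lower after cyclic loess. The difference between the lines passed for 6 members, all more negative in U2OS (1.59% of all genes), CDK1 (log2 difference -0.92 ± 0.16 SE, adjusted p = 0.00989) and TTK (log2 difference -0.77 ± 0.16 SE, adjusted p = 0.0244) first, then ECT2, TPX2, KIF20A and MAD2L1. NPAT RNA itself was also lowered less in RPE1 than in U2OS, so the line and the size of the knockdown cannot be told apart here. CDK1 in U2OS was at 9.50 and 9.62 in controls and 9.26 and 9.25 with NPAT siRNA. The checkpoint kinase TTK was at 8.19 and 8.16 in RPE1 controls and 8.72 and 8.47 with NPAT siRNA. In U2OS its controls were at 8.59 and 8.57 and its NPAT arrays at 8.17 and 8.28. The count of differences was 3 without RPE1 control replicate 2, 0 without RPE1 NPAT replicate 1, 1 without U2OS control replicate 1 or either U2OS NPAT array, 2 without U2OS control replicate 2, and 10 after median centring.

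HINFP siRNA lowered members in both lines on day 3. In RPE1 cells 6 of 38 fell (median -0.26), where 2.01% of all genes fell, and they were the 3 anaphase genes UBE2C, PTTG1 (-0.50) and CDC20 (-0.47), the passenger genes AURKB and CDCA8 (-0.49), and NUF2 (-0.52). UBE2C was at 8.45 and 8.30 in controls and 7.79 and 7.86 with HINFP siRNA (log2 difference -0.55 ± 0.096 SE, adjusted p = 0.00874). AURKB was at 9.70 and 9.84 in controls and 9.25 and 9.24 with HINFP siRNA (log2 difference -0.52 ± 0.088 SE, adjusted p = 0.00711). The HINFP arrays were below the control arrays for both genes. The HINFP replicates themselves lay apart, with means over the 38 members of 9.12 and 9.30, where the controls were at 9.46 and 9.49. Without HINFP replicate 1 the median log2 fold change was -0.15. Spindle assembly (-0.22), kinesins (-0.23) and cytokinesis (-0.10) had negative medians with 0 members called. The RPE1 count was 0 without HINFP replicate 1, 0 in a fit of the compared arrays alone and 18 in a fit of all 40 arrays.

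In U2OS cells HINFP siRNA lowered 8 of 38 members (median -0.26), where 4.84% of all genes fell. KIF20A was at 9.12 and 8.96 against 9.99 and 9.97 in controls (log2 difference -0.94 ± 0.11 SE, adjusted p = 0.000229), and NUF2 fell next (log2 difference -0.57 ± 0.11 SE, adjusted p = 0.00679). DLGAP5 (-0.55), PLK1 (-0.49), HMMR (-0.48), BUB1 (-0.46), ECT2 (-0.43) and CDCA8 (-0.32) were the others. AURKB, which fell in RPE1, was at 9.72 and 9.60 with HINFP siRNA in U2OS and 9.80 and 9.74 in controls (-0.11, adjusted p = 0.532). HINFP RNA itself was also lowered less in RPE1 than in U2OS, so the line and the size of the knockdown cannot be told apart here either. The difference between the lines was not called for AURKB (0.41, adjusted p = 0.0985) nor for any other member (0 of 38, 3 at an unadjusted p under 0.05; 3.15% of all genes passed). Without RPE1 HINFP replicate 1, KIF20A passed that comparison. The U2OS count was 1 without control replicate 1 or HINFP replicate 2, 3 without control replicate 2, 5 in a fit of the compared arrays alone and 22 in a fit of all 40 arrays.

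Set directly against each other on day 3, the pools gave few called members. Values of CASP8AP2 against NPAT siRNA were negative for 38 of 38 members in RPE1, and negative for 34 and positive for 4 in U2OS. Against HINFP siRNA they were positive for 38 of 38 in RPE1, and negative for 24 and positive for 14 in U2OS. These signs were not tested. In RPE1, CASP8AP2 against NPAT siRNA gave 0 called members (10 at an unadjusted p under 0.05; 2.38% of all genes passed; median -0.20). CASP8AP2 against HINFP gave 2 that were higher with CASP8AP2 siRNA, NUF2 (log2 difference 0.52 ± 0.11 SE, adjusted p = 0.0214) and AURKB (log2 difference 0.41 ± 0.088 SE, adjusted p = 0.0198) (2.53% of all genes; median 0.26). In U2OS, HMMR was lower with CASP8AP2 than with NPAT siRNA, at 8.15 and 8.36 against 8.89 and 8.87 (log2 difference -0.62 ± 0.12 SE, adjusted p = 0.0111), the 1 member called (1.93% of all genes). HMMR (log2 difference -0.44 ± 0.12 SE, adjusted p = 0.0449) and MAD2L1 (log2 difference -0.42 ± 0.099 SE, adjusted p = 0.0288) were lower with CASP8AP2 than with HINFP siRNA (3.16% of all genes). The called members were 5.26% of the 38 in the RPE1 HINFP comparison. In U2OS they were 2.63% against NPAT and 5.26% against HINFP siRNA. These shares are not far from those of all genes. The counts were small and not stable: with fits of all 40 arrays they were 5, 18, 5 and 7 in the order given. Leaving out CASP8AP2 replicate 1 or 2 or HINFP replicate 1 brought the RPE1 HINFP comparison from 2 to 0, and HINFP replicate 2 to 1. Leaving out CASP8AP2 replicate 1 or either NPAT array brought the U2OS NPAT comparison from 1 to 0, and CASP8AP2 replicate 1 or either HINFP array brought the U2OS HINFP comparison from 2 to 0.

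**Figure D5:**
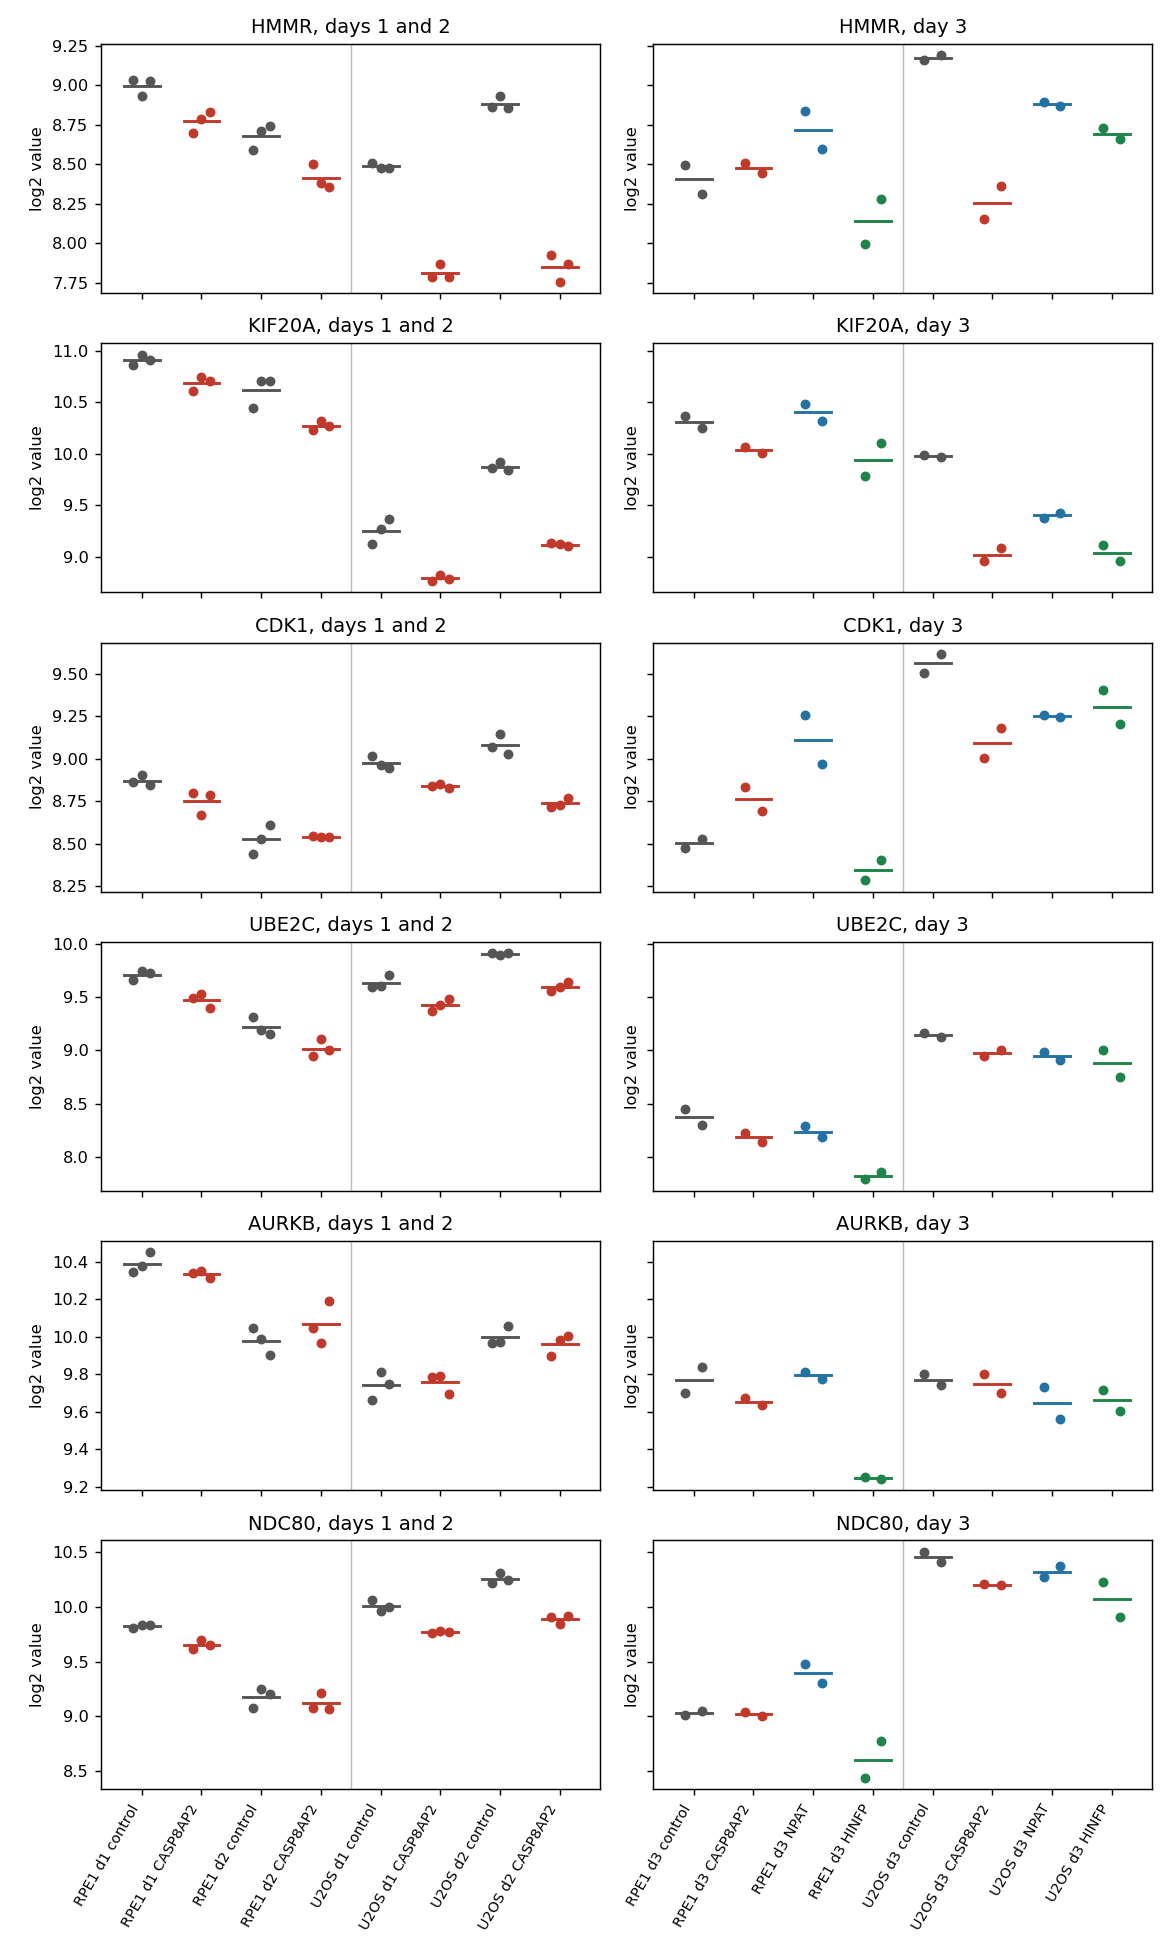
Log2 value on every array (points) and group mean (bars) of HMMR, KIF20A, CDK1, UBE2C, AURKB and NDC80 by line, day (d) and siRNA pool. Days 1 and 2 (left) and day 3 (right) were taken as normalized separately, so levels are not compared across the panels. HMMR and KIF20A are lowest in U2OS with CASP8AP2 siRNA within days 1 and 2, AURKB is lowest in the RPE1 HINFP arrays on day 3, and CDK1 in RPE1 on day 3 is highest with NPAT siRNA.

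A subset of 9 members was followed through all 16 groups. The other members reach beyond their levels and include genes that varied more, such as KIF20A, whose group means ran from 8.79 ± 0.03 to 10.91 ± 0.049 on days 1 and 2. On those days CDK1 was highest in U2OS day 2 controls (9.08 ± 0.059) and lowest in RPE1 day 2 controls (8.53 ± 0.088), where CASP8AP2 siRNA gave 8.54 ± 0.0022, a difference below the spread. FOXM1 had the same extremes, 11.37 ± 0.023 and 10.66 ± 0.08. The kinesin motor KIF11 was highest in RPE1 day 1 controls (10.44 ± 0.0018) and lowest in U2OS day 2 CASP8AP2 cells (8.82 ± 0.031), and every RPE1 group stood above every U2OS group. BUB1 went from 10.36 ± 0.043 to 9.77 ± 0.076, TPX2 from 11.08 ± 0.033 to 10.53 ± 0.078, and the cleavage furrow protein ANLN from 11.38 ± 0.069 to 10.72 ± 0.023, between the same highest and lowest groups. CDC20 went from 11.74 ± 0.072 in U2OS day 2 controls to 11.02 ± 0.079 in RPE1 day 2 CASP8AP2 cells. TOP2A was highest in RPE1 day 1 controls (11.00 ± 0.089) and lowest in U2OS day 1 CASP8AP2 cells (10.41 ± 0.003), and AURKB in RPE1 day 1 controls (10.39 ± 0.054) and U2OS day 1 controls (9.74 ± 0.074; each ± SD, n = 3). These extremes are descriptive; neighbouring groups in each order often lay within the spread of their arrays.

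On day 3 (mean ± SD, n = 2), 7 of the 9 followed members were highest in U2OS controls, CDK1 at 9.56 ± 0.08, FOXM1 at 11.02 ± 0.018, BUB1 at 10.45 ± 0.017, CDC20 at 11.38 ± 0.013, TPX2 at 11.22 ± 0.11, ANLN at 11.62 ± 0.013 and TOP2A at 10.69 ± 0.09. The exceptions were KIF11 (10.10 ± 0.18) and AURKB (9.79 ± 0.028), highest in RPE1 with NPAT siRNA. For 8 of the 9 the lowest group was RPE1 with HINFP siRNA, for example CDC20 at 10.31 ± 0.076 and AURKB at 9.25 ± 0.0049, and KIF11 was lowest in U2OS with CASP8AP2 siRNA (9.07 ± 0.14).

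In U2OS day 2 CASP8AP2 cells the median log2 fold change was -0.40 over the 26 members with CHR letters in a promoter window and -0.31 over the 5 without. On day 3 these medians were -0.36 and -0.23. The order was the other way with CASP8AP2 siRNA in U2OS on day 1 (-0.24 with, -0.26 without) and in RPE1 on days 1 (-0.12 and -0.21), 2 (-0.18 and -0.32) and 3 (-0.0006 and -0.11). With HINFP siRNA the medians were -0.22 and -0.37 in RPE1 and -0.26 and -0.15 in U2OS, and with NPAT siRNA 0.22 and 0.093 in RPE1 and -0.18 and -0.18 in U2OS. These differences were not tested and had no single direction. HMMR, ECT2, NUF2, MAD2L1, PLK1 and CDK1, whose sequences are shown above, were chosen among members with the letters. That they carry them is therefore no result. KIF20A and CENPE, which fell most on U2OS day 3 and RPE1 day 2, have no such letters in the window examined.

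Of 71 other listed mitosis genes 23 could be matched to an identifier. With CASP8AP2 siRNA in U2OS, 7 of these 23 fell on day 1, where 3.01% of all genes fell. On day 2, 14 fell and 1 rose (median -0.24), where 13.1% of all genes fell and 11.8% rose. On day 3, 9 fell (median -0.27), where 11% of all genes fell. Cyclin A2 (CCNA2, -0.51), the condensin subunit NCAPG (-0.59) and C13orf34 (-0.57), also called Bora, an activator of Aurora A, were among those that fell on day 2, and WEE1, the kinase that restrains CDK1, rose by 0.22. In RPE1, 1 fell on day 1 (0.344% of all genes), 7 fell (2.16%) and 1 rose (4.25%) on day 2, and 1 rose on day 3 (3.62%). The gene that rose on day 2 was MYBL2, which encodes B-MYB (0.30). With NPAT siRNA in RPE1 1 of the 23 rose, again MYBL2 (0.59), where 2.37% of all genes rose, and in U2OS 3 fell (4.29% of all genes). With HINFP siRNA 2 fell in RPE1 (2.01% of all genes) and 4 in U2OS (4.84%).

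The G1/S and S phase genes, 21 matched of 32 listed, were measured beside them. With CASP8AP2 siRNA in U2OS, 1 of 21 fell on day 1, a share near the 3.01% of all genes. On day 2, 11 fell and 1 rose (median -0.22), where 13.1% of all genes fell and 11.8% rose. E2F2 (-0.70), UNG (-0.70) and cyclin E2 (CCNE2, -0.60) were lowest on that day. On day 3, 6 fell (median -0.14), where 11% of all genes fell. With NPAT siRNA in RPE1, where CDK1 and 3 other members rose, 4 of 21 rose (2.37% of all genes): the ribonucleotide reductase subunits RRM2 (0.49) and RRM1 (0.42), EXO1 (0.48) and the licensing factor CDC6 (0.37). With HINFP siRNA 5 of 21 fell in RPE1 (2.01% of all genes) and 4 in U2OS (4.84%). Of the 21, 0 passed with NPAT siRNA in U2OS (8.13% of all genes). With CASP8AP2 siRNA in RPE1, 0, 3 and 2 fell on days 1, 2 and 3, where 0.344%, 2.16% and 2.54% of all genes fell. Whether shifts in cell cycle phase move both lists was not tested.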

How the data were processed

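RNA of 40 samples (labels name them biological replicates) was hybridised to Affymetrix Human WT 1.1 arrays. The authors deposited log2 values, RMA-summarised (per the submitters' processing notes) with a custom probe grouping by Ensembl gene. Its version and the genome build are not given in the sources used here. The 24 arrays of days 1 and 2 and the 16 of day 3 were taken as normalized separately and fitted apart with limma 3.58.1 in R 4.3.3 (a group-means design and empirical Bayes moderation), with Benjamini-Hochberg adjustment over 22069 genes. Calls required an adjusted p below 0.05. No low-value filter was used. The p-values measure only the spread between these samples. The members and lists were chosen with earlier results of these data known. Named were the called members with the largest rises and falls of each comparison and 9 followed throughout. Symbols of genes outside the 38 came from supplementary sheets that pair them with identifiers. Promoters came from RefSeq. The alternatives were the compared arrays alone, all 40 arrays, median centring, cyclic loess, a replicate block, a low-value filter and leaving out each array. The fit was tested on simulated data. A comparison, the difference of the lines in control drift, was added after seeing the data.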

Additional observations from a re-analysis of the deposited data

Results flagged for a closer look

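The effect of CASP8AP2 siRNA on the mitosis genes differed between the lines by the interaction term of the limma fit. On day 1 the difference passed the test for 2 members, HMMR (-0.45 on the log2 scale, U2OS minus RPE1) and NUSAP1 (-0.38). Over all genes, 0.408% were more negative in U2OS on that day. On day 2 it passed for 16 (4.83% of all genes), led by HMMR (-0.77) and ECT2 (-0.45). On day 3 it passed for 10 (5.5% of all genes), led by HMMR (-0.99) and ECT2 (-0.87). The day 3 count was lower without some single arrays, as given above.

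The NPAT effect differed between the lines for 6 members (1.59% of all genes), with CDK1 (-0.92) and TTK (-0.77) first. That count too was lower without some single arrays. For the CASP8AP2, NPAT and HINFP pools alike, the RNA of the target was lowered less in RPE1 than in U2OS. The line and the size of the knockdown cannot be told apart in comparisons of an siRNA effect between the lines. Within U2OS, the CASP8AP2 effect was more negative on day 2 than on day 1 for 9 members (3.04% of all genes), NUF2 (-0.37) and HMMR (-0.36) first. The change of control cells from day 1 to day 2 differed between the lines for 35 members (6.06% of all genes), KIF20A (0.91) and NDC80 (0.89) first. That comparison was added after the control values had been seen.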

How the results depend on the processing

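Over 139 named values and their alternatives, 1422 recalculations kept the call or the lack of one, 136 lost the call and 24 gained one. In 0 did the direction reverse with a call before or after, and reversals without any call were not counted. Of the 139 values, 75 passed the test, and 36 of these kept the call in all alternatives. Counts of called members that moved by over 1.5 times were as follows. Fits of only the arrays compared called 0 members for CASP8AP2 siRNA in RPE1 on days 1 and 2, 12 in U2OS on day 1, 0 for NPAT and 0 for HINFP siRNA in RPE1, 5 for HINFP siRNA in U2OS, 1 for the day 1 difference between lines, 0 for CASP8AP2 against HINFP in each line, 0 for CASP8AP2 against NPAT in U2OS and 13 for control drift in RPE1, with fewer arrays behind each variance. A fit of all 40 arrays called 1 for CASP8AP2 siRNA in RPE1 on day 1 and 3 on day 3, 15 and 18 for NPAT and HINFP siRNA in RPE1, 14 and 22 in U2OS, 1, 18, 20 and 2 for the differences between lines of CASP8AP2 (days 1 and 3), NPAT and HINFP, 5 for the day difference in U2OS, and 5, 18, 5 and 7 for CASP8AP2 against NPAT and HINFP in RPE1 and then in U2OS. Median centring gave 10 for the NPAT difference between lines and 14 for control drift in U2OS, and cyclic loess gave 3 for the day difference in U2OS and 0 for CASP8AP2 against HINFP in U2OS. In the fit of all 40 arrays, the 3 members called with CASP8AP2 siRNA on RPE1 day 3 were CDK1, higher, and CDC20 and CDCA8, lower. The 2 of the HINFP difference between lines were AURKB, more positive in U2OS, and KIF20A, more negative. The cause of these changes was not tested, and the share of all genes called in the alternative fits was not counted. The low-value filter moved no count by that much. Cyclic loess also moved the median over the members to -0.19 for CASP8AP2 and -0.11 for NPAT siRNA in U2OS on day 3.

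When single arrays were left out, the CASP8AP2 counts lay between 0 and 3 (RPE1 day 1), 9 and 14 (RPE1 day 2), 17 and 26 (U2OS day 1), 32 and 33 (U2OS day 2), 0 and 0 (RPE1 day 3) and 6 and 15 (U2OS day 3). The NPAT counts lay between 0 and 2 in RPE1 and 1 and 2 in U2OS, and the HINFP counts between 0 and 6 and between 1 and 10. The differences between lines ranged from 1 to 2, 14 to 17 and 2 to 11 for CASP8AP2 on days 1, 2 and 3, 0 to 6 for NPAT and 0 to 1 for HINFP, and the day differences from 0 to 0 in RPE1 and 4 to 8 in U2OS. CASP8AP2 against NPAT and HINFP gave 0 to 0 and 0 to 1 in RPE1 and 0 to 1 and 0 to 2 in U2OS. Control counts ranged from 28 to 30, 23 to 26 and 22 to 25 between lines on days 1, 2 and 3, 30 to 33 and 15 to 20 between days in RPE1 and U2OS, and 32 to 35 for the difference of these drifts.

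Replicate numbers were not taken to pair the arrays, since neither the labels nor every pair's correlation did so. Same-numbered arrays correlated in their deviations from group means at -0.102 to 0.073 on days 1 and 2. On day 3 they did so at -0.125 to 0.205, where 18 of 56 pairs were over 0.1 (median 0.032). With 2 arrays in each day 3 group, the 2 deviations mirror each other. Each value is therefore counted for both replicate numbers. Other pairs give it with the sign changed (median -0.032), so they are no separate comparison. With the replicate block, CASP8AP2 against HINFP siRNA in U2OS gave 1 member in place of 2, and U2OS day 2 gave 33 as before.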
